A study of Homo sapiens with 6 samples.

Results

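The carcinoembryonic antigen-related cell adhesion molecules CEACAM1, CEACAM5, CEACAM6 and CEACAM7 were described by every probe set that the platform annotation assigns to one of these 4 symbols alone. These are 4 of 11963 genes with a symbol of their own, and they had 12 of the 22215 probe sets that were not array controls: 5 for CEACAM1, 2 for CEACAM5, 2 for CEACAM6 and 3 for CEACAM7. CEACAM6 lay below both control arrays in each of the 4 transfected arrays, with group means 2.17- to 2.97-fold lower. Of the 2 CEACAM7 probe sets above the array's controls for an absent transcript, 1 read higher in both PIAS3 arrays than in both controls. PIAS3 replicate 1 was the highest array for 4 of the 5 CEACAM1 probe sets, and for 23.7% of all probe sets. For 1 of these 4, 210610_at, it was highest only by 5.71 against 5.69 in control replicate 2. CEACAM5 differed from control by at most 0.23 on the log2 scale. The genes count as selected on their differences between these groups, since they were proposed with results of these arrays known. Those differences are given as a description, and nothing is supported with them.

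CEACAM proteins are cell surface glycoproteins of the immunoglobulin superfamily that bind each other, and partly other CEACAMs, between neighbouring cells. CEACAM5 (the tumour marker carcinoembryonic antigen), CEACAM6 and CEACAM7 are held in the outer layer of the cell membrane by a glycosylphosphatidylinositol (GPI) anchor. CEACAM1 crosses the membrane, and its long isoforms carry inhibitory tyrosine motifs in the tail. CEACAM5 and CEACAM6 are often abundant in lung and colon adenocarcinomas, where CEACAM6 is known for helping cells to survive without attachment. CEACAM7 is best known from colon and pancreatic duct epithelium.

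The cells were A549, an established human lung adenocarcinoma line, profiled on 6 Affymetrix arrays in 3 groups of 2. The PIAS3 group received the plasmid pCMV5 encoding human PIAS3, a SUMO ligase known to inhibit STAT3, under a viral promoter active in most cells. The STAT3 siRNA group received an siRNA against STAT3, and RNA of both groups was taken 48 h after transfection. The control group is labelled as EGF-stimulated and, per the labels, not transfected, so it held neither an empty plasmid nor an untargeted siRNA. Its harvest time is not labelled. In differences from control, the plasmid or siRNA, transfection itself and time in culture therefore cannot be told apart. The series' design text gives serum-free medium and EGF for all 3 groups, but only the control arrays have EGF in their titles. Whether the 2 arrays of a group stand for 2 cultures is not labelled. P-values thus measure only the spread between these arrays, which could be technical, and so few arrays limit the precision. In bulk RNA, fewer cells carrying a transcript and less of it per cell cannot be told apart.

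Several facts of the arrays touch the results. Array medians lay between 6.63 and 6.72 on the log2 scale, and control probe sets for a transcript that is absent read 3.26 to 3.93. STAT3 itself, by its brighter probe set, stood at 10.18 and 9.70 in the PIAS3 arrays, 10.23 and 9.94 in the siRNA arrays, and 10.50 and 10.43 in the controls. These differences did not pass the threshold (limma adjusted p of 0.254 for PIAS3 and 1.0 for the siRNA). PIAS3 differed from control by 0.04 ± 0.11 in its own group (SE, n = 2 per group). Whether its probes lie within the inserted sequence is not known here, so this does not check the plasmid. PIAS3 replicate 1 stood apart. Its 32 measured interferon-stimulated genes had a median of 3.43 above the control mean, against 0.02 in PIAS3 replicate 2, and its poly-A spike-in probe sets read 1.44 above it. STAT3 siRNA replicate 2 lay nearer to PIAS3 replicate 2 than to siRNA replicate 1, with probe set differences that had an SD of 0.19 and 0.25. In turn, siRNA replicate 1 lay nearer to control replicates 1 and 2 (SD of 0.21 and 0.20) than to siRNA replicate 2. Of the 5 epithelial markers, KRT8 and KRT18 read 12.39 to 13.79 in all arrays. KRT19 read 9.02 and 9.34 in the PIAS3 arrays, 10.76 and 9.42 in the siRNA arrays, and 11.16 and 11.02 in the controls. EPCAM read 6.36 and 6.78 in the PIAS3 arrays, 7.12 and 6.04 in the siRNA arrays, and 7.24 and 7.22 in the controls. Both were thus lower in all transfected arrays, as CEACAM6 was, while the cadherin CDH1 was higher (values with its list). The summed level of the 5 was 14.27 to 14.36 (log2) in the PIAS3 arrays, 14.27 to 14.31 in the siRNA arrays and 14.37 to 14.51 in the controls. Levels were added before taking log2, so KRT8 and KRT18 make up most of this sum. It can therefore hardly show the differences of KRT19, EPCAM and CDH1. The part of the epithelial markers in the CEACAM6 values was not tested. Granulocytes carry CEACAM1 and CEACAM6 too. The summed level of 6 of 6 granulocyte markers was 7.87 to 8.08 (log2) in the PIAS3 arrays, 7.85 to 7.97 in the siRNA arrays and 7.89 to 7.92 in the controls. Among them CEACAM8 read 3.07 to 3.26, no higher than the absent-transcript controls in any array. CEACAM3, ELANE, MPO, CSF3R and FCGR3B read above those controls in all 6 arrays. Of the leukocyte markers 2 were measured, PTPRC at 3.85 to 3.95, at the upper end of those controls, and CD3D at 5.41 to 5.54, above them. A reading above those controls does not by itself show that a transcript is present. This limits the CEACAM1, CEACAM5 and CEACAM7 probe sets, whose mean levels lay at the 47.3 percentile of all probe sets or lower. The CEACAM6 probe sets lay at 86.6 and 90.6. Of the alveolar type II markers, SFTPB, SFTPC, SFTPD and NKX2-1 were measured, at 4.29 to 7.71.

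The 4 genes lie in the CEACAM clusters of chromosome 19, where CEACAM7, CEACAM5 and CEACAM6 are neighbours and 24 other protein-coding genes separate CEACAM6 from CEACAM1. Their promoters are shown because the genes are close relatives. Whether these sequences bear on the levels in the arrays was not tested. Each runs from 250 bases before to 50 bases after the RefSeq start of the gene (GRCh38.p14), 5′ to 3′ on the strand of the gene. Capitals mark matches, on either strand, to CACGTG (an E-box), GAAA followed by any 2 bases and GAAA (an interferon response motif) and GGGCGG (a GC box). The STAT motif TTCNNNGAA had no match in these windows.
CEACAM6 (chr19:41755280-41755579, plus strand): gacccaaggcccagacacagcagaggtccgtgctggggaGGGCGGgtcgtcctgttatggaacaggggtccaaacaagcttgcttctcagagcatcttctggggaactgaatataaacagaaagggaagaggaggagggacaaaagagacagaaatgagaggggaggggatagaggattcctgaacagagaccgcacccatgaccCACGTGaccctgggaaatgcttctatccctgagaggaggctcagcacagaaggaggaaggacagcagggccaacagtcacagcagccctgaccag
CEACAM5 (chr19:41708376-41708675, plus strand): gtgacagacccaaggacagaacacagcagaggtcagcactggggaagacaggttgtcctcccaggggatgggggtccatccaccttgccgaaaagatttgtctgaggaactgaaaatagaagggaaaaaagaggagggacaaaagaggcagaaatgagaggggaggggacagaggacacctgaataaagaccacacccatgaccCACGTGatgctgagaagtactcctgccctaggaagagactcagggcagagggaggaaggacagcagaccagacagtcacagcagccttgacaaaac
CEACAM7 (chr19:41688221-41688520, minus strand): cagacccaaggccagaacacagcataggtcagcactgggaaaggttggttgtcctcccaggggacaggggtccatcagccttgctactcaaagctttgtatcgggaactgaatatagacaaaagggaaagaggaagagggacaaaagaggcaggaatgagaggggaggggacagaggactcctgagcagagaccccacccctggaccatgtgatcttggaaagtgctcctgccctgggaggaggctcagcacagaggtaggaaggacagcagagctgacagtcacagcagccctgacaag
CEACAM1 (chr19:42528432-42528731, minus strand): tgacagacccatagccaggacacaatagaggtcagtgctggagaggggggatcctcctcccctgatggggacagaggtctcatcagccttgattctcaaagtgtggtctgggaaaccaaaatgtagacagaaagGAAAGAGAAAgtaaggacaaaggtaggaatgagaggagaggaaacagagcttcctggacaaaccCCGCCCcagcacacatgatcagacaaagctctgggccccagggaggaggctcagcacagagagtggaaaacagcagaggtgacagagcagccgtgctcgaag

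In global alignments CEACAM5 and CEACAM7 had 81.4% identical columns, CEACAM6 and CEACAM7 80.5%, and CEACAM5 and CEACAM6 74.7%. CEACAM1 was less alike, with 65.6% to 71.2%. CEACAM5, CEACAM6 and CEACAM7 share the run aatgagaggggagggga, which no other of 27305 promoters of this length holds. The E-box is the motif of the USF factors. It stands 46 bases before the start in CEACAM5 and 45 in CEACAM6, is absent from the other windows, and occurs in 7.43% of all promoters. The interferon response motif was found in CEACAM1 alone, 116 bases before its start, and in 3.65% of all promoters. The GC box, the motif of SP1, was found in CEACAM6 and CEACAM1 and in 44.6% of all promoters. No 2 of these matches overlapped. The STAT motif occurs in 7.88% of all promoters. A match is a description of the sequence, and a missing one says only that these letters are not in this window.

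CEACAM6 (Entrez gene 4680) gave the lowest differences of the family against control. Its probe set 211657_at read 10.16 and 9.60 in the PIAS3 arrays, 9.46 and 9.59 in the siRNA arrays, and 10.98 and 11.02 in the controls. Its probe set 203757_s_at read 9.75 and 8.90 in the PIAS3 arrays, 8.77 and 9.12 in the siRNA arrays, and 10.43 and 10.60 in the controls. By both probe sets all 4 transfected arrays lay below both controls, and PIAS3 replicate 1 was the highest of the 4. Centred on their own means, the profiles of the 2 probe sets differed by a root mean square of 0.12 over the 6 arrays.

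**Figure D1:**
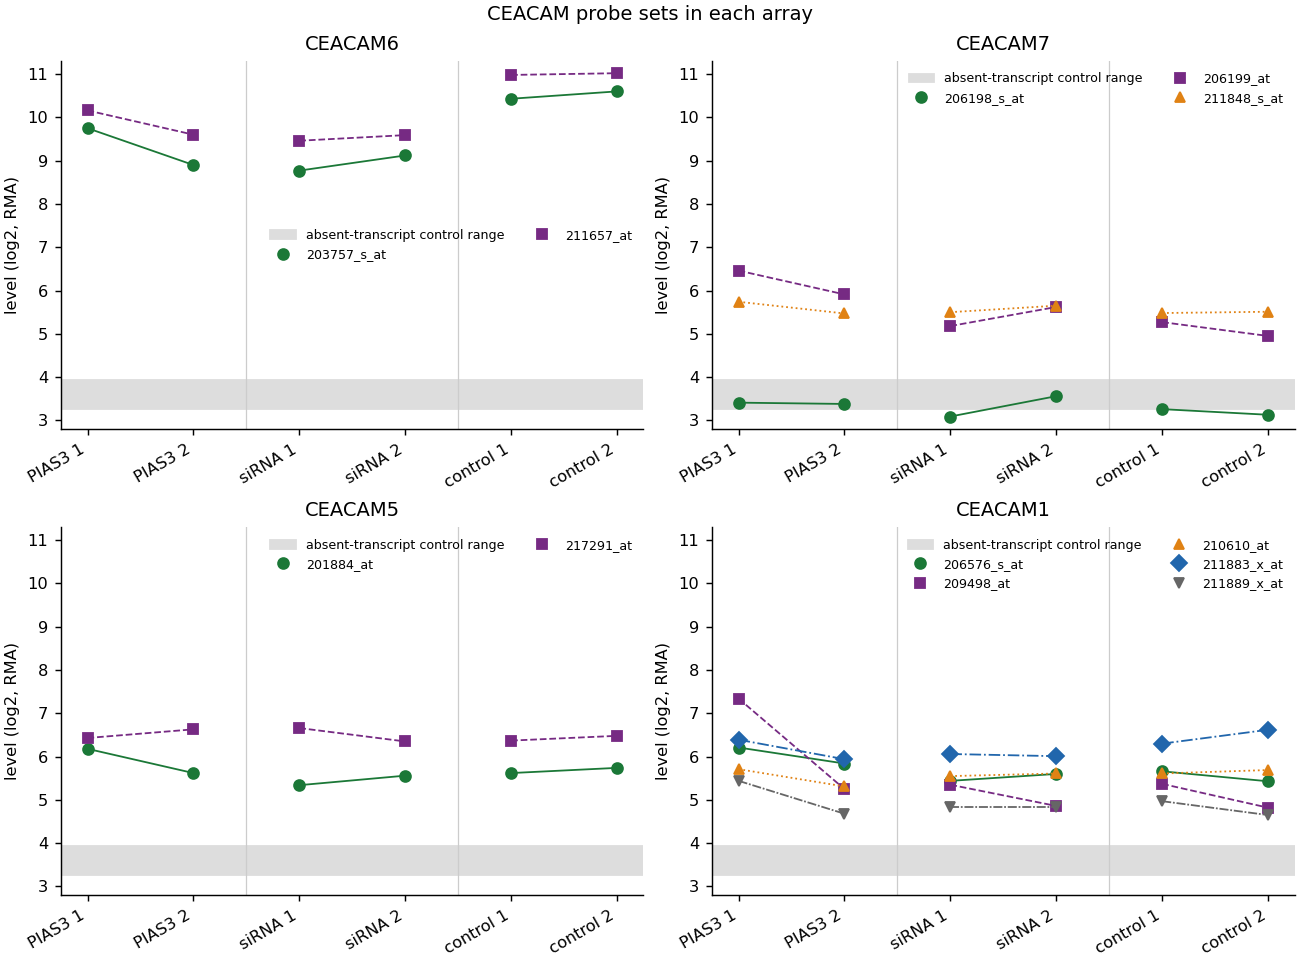
Level (log2, RMA) of each CEACAM probe set in each array, with PIAS3, STAT3 siRNA and control arrays from left to right. Lines join the 2 arrays of a group, and the grey band is the range of the absent-transcript controls (3.26 to 3.93). CEACAM6 is highest in the controls, 206199_at of CEACAM7 is highest in the PIAS3 arrays, and 209498_at of CEACAM1 stands out in PIAS3 replicate 1 alone.

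For PIAS3 minus control, the CEACAM6 difference was -1.12 ± 0.18 by 211657_at and -1.19 ± 0.26 by 203757_s_at (log2, SE, n = 2 per group). Without PIAS3 replicate 1 it was -1.40 and -1.61, and without PIAS3 replicate 2 it was -0.83 and -0.76. A difference of -1 or lower was found for 122 probe sets, 0.549% of all tested. For STAT3 siRNA minus control it was -1.47 ± 0.18 by 211657_at and -1.57 ± 0.26 by 203757_s_at. In that comparison 40 probe sets, 0.18% of all tested, were at -1 or lower. Counting the probe set itself, 7 of 22215 probe sets were as low as 203757_s_at or lower. For 211657_at 9 were, both CEACAM6 probe sets among them. The 2 comparisons share their control arrays, so they do not support each other.

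PIAS3 and siRNA arrays were closer to each other. CEACAM6 differed between them by 0.36 ± 0.18 by 211657_at, where both PIAS3 arrays lay above both siRNA arrays, and by 0.38 ± 0.26 by 203757_s_at, where the groups overlapped. Without PIAS3 replicate 1 these differences were 0.077 and -0.042.

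CEACAM7 (Entrez gene 1087) was described by 3 probe sets that did not read alike. Probe set 206199_at read 6.46 and 5.91 in the PIAS3 arrays, 5.18 and 5.62 in the siRNA arrays, and 5.27 and 4.95 in the controls. Both PIAS3 arrays lay above all 4 others, while the siRNA arrays overlapped the controls. Its difference was 1.07 ± 0.23 for PIAS3 minus control, 0.29 ± 0.23 for siRNA minus control, and 0.79 ± 0.23 for PIAS3 minus siRNA. Without PIAS3 replicate 1 the PIAS3 difference was 0.80 from control and 0.51 from the siRNA arrays. The siRNA difference from control ran from 0.066 without siRNA replicate 2 to 0.51 without siRNA replicate 1. A difference of 1 or higher was found for 210 probe sets, 0.945% of all tested.

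The other CEACAM7 probe sets did not show it. Probe set 211848_s_at read 5.74 and 5.47 in the PIAS3 arrays, 5.50 and 5.65 in the siRNA arrays, and 5.48 and 5.51 in the controls, a PIAS3 difference of 0.11 ± 0.13. Probe set 206198_s_at read 3.41 and 3.38 in the PIAS3 arrays, 3.09 and 3.56 in the siRNA arrays, and 3.26 and 3.13 in the controls. It read no higher than the absent-transcript controls in any array, so it gives no level of CEACAM7. The CEACAM7 difference therefore rests on 206199_at, a dim probe set with a mean level at the 33.5 percentile.

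CEACAM1 (Entrez gene 634) was described by 5 probe sets. Probe set 209498_at read 7.34 and 5.25 in the PIAS3 arrays, 5.35 and 4.86 in the siRNA arrays, and 5.37 and 4.82 in the controls. PIAS3 replicate 1 lay apart from the 5 other arrays, which ranged from 4.82 to 5.37, and the groups overlapped. The group difference of 1.20 ± 0.59 from control rested on that array: it was 0.16 without PIAS3 replicate 1 and 2.25 without PIAS3 replicate 2. Against the siRNA arrays it was 1.19 ± 0.59, where 113 probe sets, 0.509% of all, differed by 1 or more.

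Probe set 206576_s_at of CEACAM1 read 6.21 and 5.84 in the PIAS3 arrays, 5.44 and 5.60 in the siRNA arrays, and 5.66 and 5.43 in the controls. Both PIAS3 arrays lay above the 4 others, and the difference from control was 0.48 ± 0.16, or 0.29 without PIAS3 replicate 1. Probe set 211889_x_at read 5.44 and 4.68 in the PIAS3 arrays, against 4.84 in each siRNA array and 4.97 and 4.65 in the controls. PIAS3 replicate 1 was its highest array, and its difference from control of 0.25 ± 0.24 turned to -0.13 without that array.

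The remaining CEACAM1 probe sets pointed the other way. Probe set 210610_at read 5.71 and 5.31 in the PIAS3 arrays, 5.55 and 5.61 in the siRNA arrays, and 5.61 and 5.69 in the controls, a PIAS3 difference of -0.15 ± 0.15. Probe set 211883_x_at read 6.39 and 5.94 in the PIAS3 arrays, 6.06 and 6.01 in the siRNA arrays, and 6.30 and 6.62 in the controls. Its siRNA arrays lay below both controls, with a difference of -0.43 ± 0.18, while its PIAS3 arrays overlapped them (-0.30 ± 0.18). The siRNA difference was -0.27 without control replicate 2, and the PIAS3 difference ran from -0.53 without PIAS3 replicate 1 to -0.069 without PIAS3 replicate 2. The x in 2 of these names marks probe sets in which some probes can bind related transcripts, so their signal may come from other CEACAM genes. For CEACAM1 minus control in the siRNA arrays, the other 4 probe sets gave -0.07 to 0.03.

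In PIAS3 replicate 1 the interferon-stimulated genes stood high together with 3 of the 5 CEACAM1 probe sets (209498_at, 206576_s_at and 211889_x_at). All 32 measured lay above both controls in PIAS3 replicate 1, against 13 in PIAS3 replicate 2, and 8 and 15 in the siRNA arrays. Their summed level was 15.32 and 11.96 on the log2 scale in the PIAS3 arrays, 11.79 and 12.01 in the siRNA arrays, and 11.91 and 11.87 in the controls. As a group comparison, 0 of 32 passed in PIAS3 minus control (0.099% of all probe sets). Their median difference was 1.72 and their smallest limma adjusted p was 0.259. Of the 32, 5 had an unadjusted p under 0.05 (13.9% of all). Interferon is known to induce CEACAM1. The same array was also the highest for 201884_at of CEACAM5 and for 206199_at and 211848_s_at of CEACAM7. The part of the interferon-stimulated genes and of the spike-in level in these values was not tested.

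**Figure D2:**
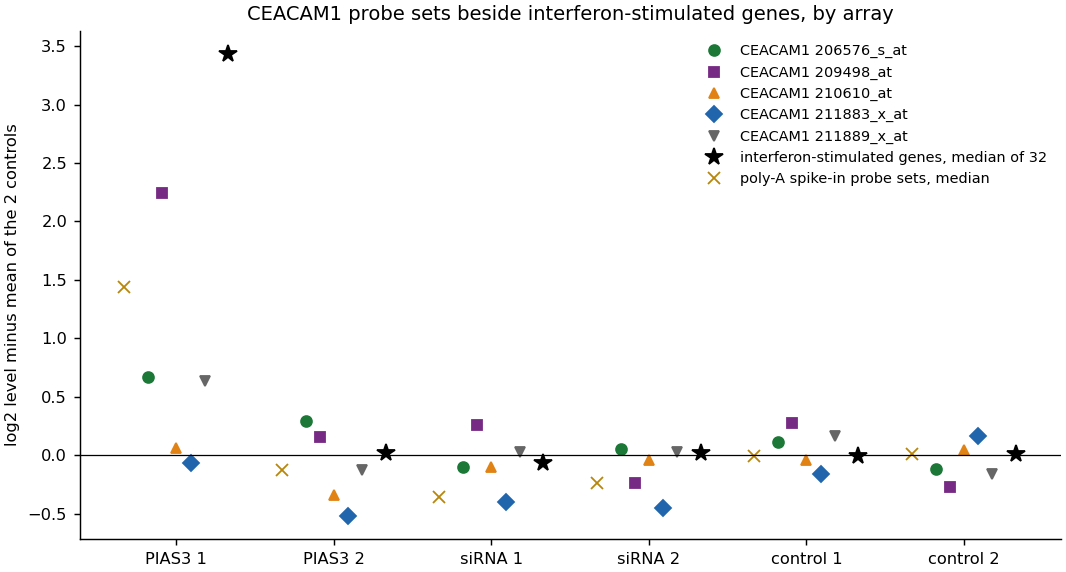
Level minus the mean of the 2 controls (log2) in each array for the 5 CEACAM1 probe sets, with the median of 32 interferon-stimulated genes (stars) and of the poly-A spike-in probe sets (crosses). In PIAS3 replicate 1 the interferon median is 3.43, the spike-in median 1.44 and 209498_at the highest of the CEACAM1 probe sets, while 210610_at and 211883_x_at stay near 0.

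CEACAM5 (Entrez gene 1048) was described by 2 probe sets. Probe set 201884_at read 6.18 and 5.62 in the PIAS3 arrays, 5.34 and 5.56 in the siRNA arrays, and 5.62 and 5.74 in the controls. PIAS3 replicate 1 was again its highest array, and both siRNA arrays lay just below both controls. Its difference from control was 0.22 ± 0.19 with PIAS3, which turned to -0.059 without PIAS3 replicate 1, and -0.23 ± 0.19 with the siRNA, or -0.12 without siRNA replicate 1.

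Probe set 217291_at of CEACAM5 read 6.43 and 6.63 in the PIAS3 arrays, 6.66 and 6.35 in the siRNA arrays, and 6.37 and 6.48 in the controls. Its groups overlapped in all 3 comparisons, with differences from control of 0.10 ± 0.14 with PIAS3 and 0.08 ± 0.14 with the siRNA.

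**Figure D3:**
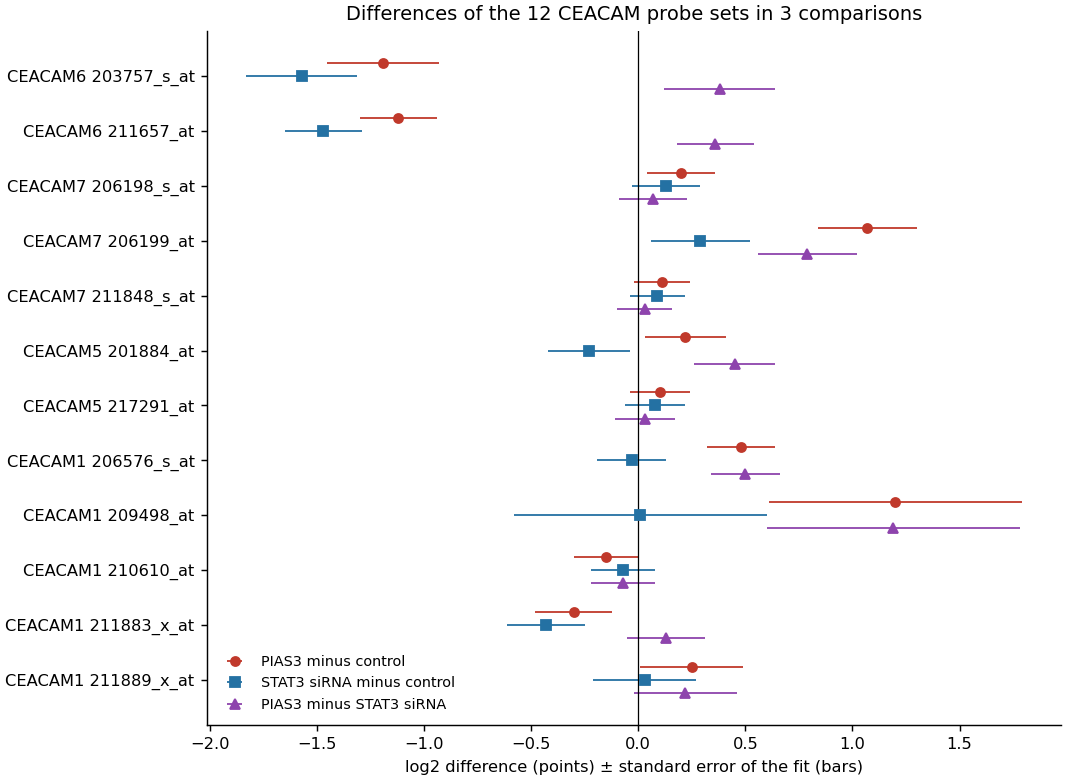
Log2 difference (points) with the standard error of the fit (bars) for the 12 CEACAM probe sets in PIAS3 minus control, STAT3 siRNA minus control and PIAS3 minus STAT3 siRNA. Both CEACAM6 probe sets lie below -1 in the first 2 comparisons, and 206199_at of CEACAM7 and 209498_at of CEACAM1 lie above 1 for PIAS3 minus control, the last with a wide error.

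Over the 12 probe sets, PIAS3 minus control had a median of 0.158, against -0.009 over all probe sets, and 8 of 12 were positive. Both PIAS3 arrays lay above both controls for 3 and below them for 2, where 21% and 24.4% of all probe sets did so. For the siRNA the median was -0.005, against -0.003 over all probe sets. Both siRNA arrays lay above both controls for 0 members and below them for 4, where 18.3% and 19.1% of all did so. Both PIAS3 arrays lay above both siRNA arrays for 4 members and below them for 0, where 16.2% and 18.7% of all did so. PIAS3 replicate 1 was the highest of the 6 arrays for 7 of the 12 members, and for 23.7% of all probe sets.

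In the limma fit across all probe sets, 0 of 12 members passed an adjusted p of 0.05 in PIAS3 minus control (0.099% of all probe sets), the smallest value being 0.0792 for 211657_at of CEACAM6. In siRNA minus control 0 of 12 passed (0.0045% of all), with 0.238 the smallest, for the same probe set. In PIAS3 minus siRNA 0 passed (0% of all). At an unadjusted p under 0.05 there were 4, 3 and 3 members in these comparisons, where 13.9%, 4.85% and 8.1% of all probe sets stood. Without PIAS3 replicate 2, 3 members passed in PIAS3 minus control, where 5.55% of all probe sets then did. In PIAS3 minus siRNA 1 member passed (209498_at of CEACAM1), where 2.45% of all did. With the 2 groups alone, 211657_at passed in siRNA minus control (limma adjusted p of 0.0311), where 0.0135% of all did. Leaving out either PIAS3 array gives that same fit, so it adds nothing to this. These counts describe where the members stood in the whole table, since the members were chosen with these comparisons known.

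The measured genes around the members were compared next. Of 44 other protein-coding genes between CEACAM7 and CEACAM1 or within 10 places of either end, 29 were measured. Their differences from control ran from -0.24 to 0.81 with PIAS3 and from -0.31 to 0.35 with the siRNA. In either comparison 0 passed the limma threshold (0.099% and 0.0045% of all probe sets). CEACAM3, the next measured neighbour of CEACAM6 and a granulocyte receptor, differed by 0.03 with PIAS3 and -0.00 with the siRNA. RABAC1, a regulator of vesicle transport, was the lowest neighbour in both comparisons, at -0.24 and -0.31. The CEACAM6 difference of more than 1 log2 was therefore not seen in any of the measured neighbours.

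**Figure D4:**
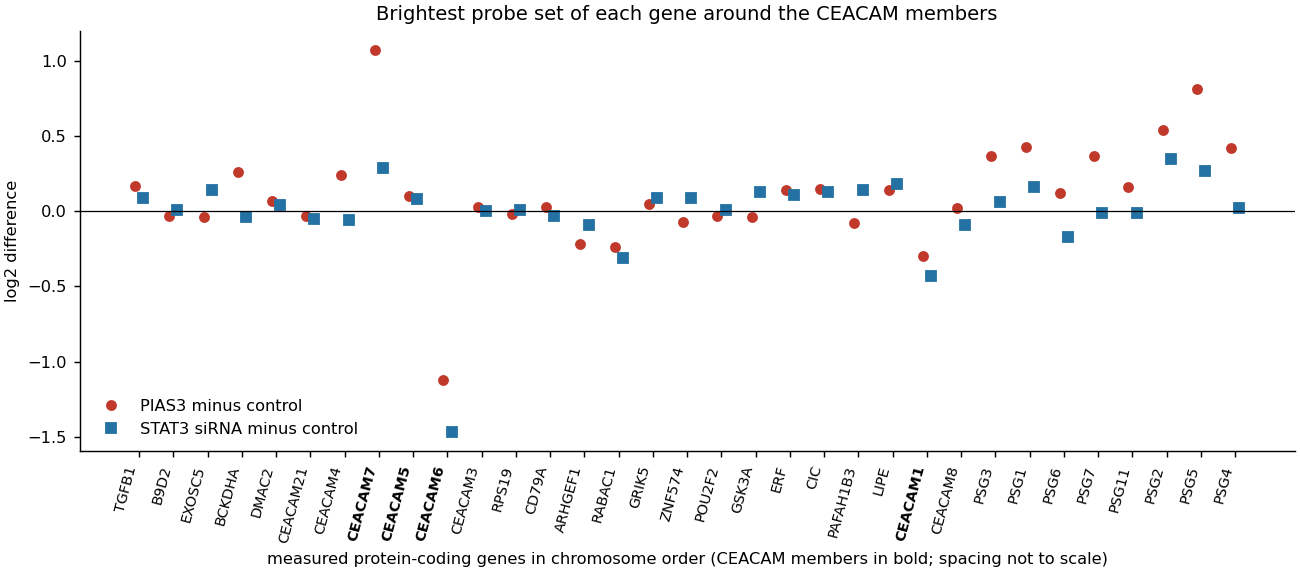
Log2 differences from control, by the brightest probe set of each gene, for the measured protein-coding genes around the CEACAM members in chromosome order, with PIAS3 as circles and STAT3 siRNA as squares. CEACAM6 lies below -1 in both, CEACAM7 lies at 1.07 for PIAS3, and all other genes lie between -0.43 and 0.81.

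The genes whose levels ran most like CEACAM6 (211657_at) were sought among 11155 genes, by the root mean square difference of centred log2 values over the 6 arrays. HBEGF, an EGF receptor ligand, and GADD45A, a stress-induced growth arrest protein, were nearest at 0.23, followed by the transcription factors KLF4 and NFE2L3 at 0.25. HBEGF read 6.68 and 6.42 in the PIAS3 arrays, 6.54 and 6.25 in the siRNA arrays, and 7.52 and 7.41 in the controls. All 4 genes were highest in the controls, by less than CEACAM6. Nearest to CEACAM7 (206199_at) were TACC2, a centrosomal protein, and TOB1, an antiproliferative protein, at 0.08, then the cadherin CDH1 and the secreted proteoglycan TSKU at 0.10. CDH1 read 9.54 and 9.14 in the PIAS3 arrays, 8.37 and 8.60 in the siRNA arrays, and 8.31 and 8.19 in the controls. The brightest probe sets of CEACAM1 and CEACAM5 spanned 0.69 and 0.32 over the arrays, under the span of 1 set for this search.

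**Figure D5:**
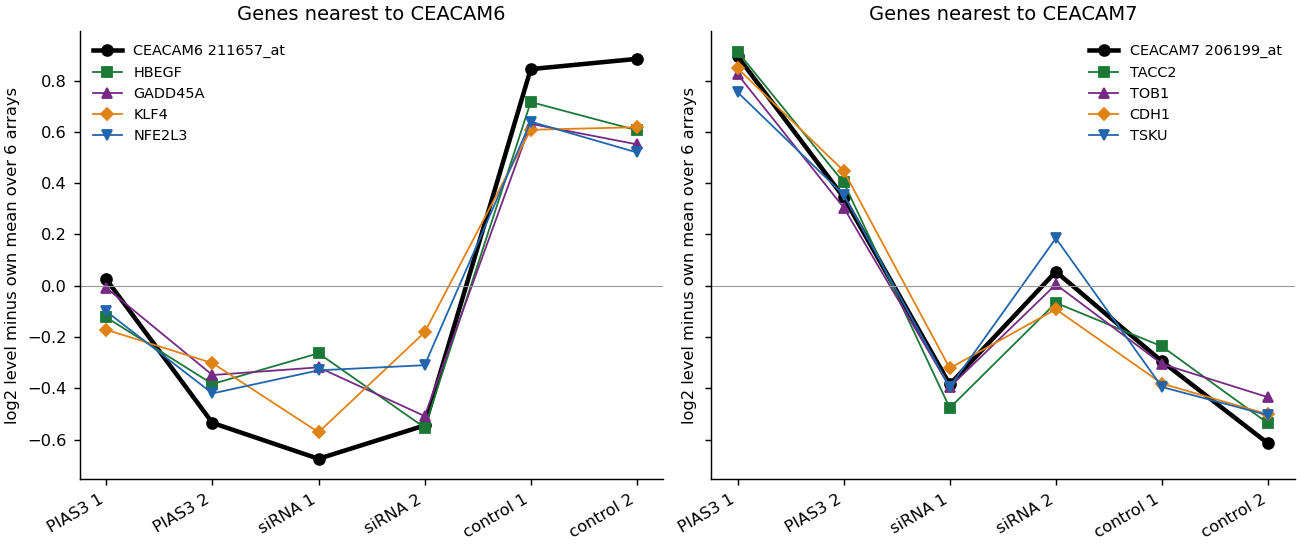
Level minus the gene's own mean over the 6 arrays (log2) for CEACAM6 (left) and CEACAM7 (right), each with its 4 nearest genes. Lines guide the eye across arrays. The CEACAM6 set is high in both controls, and the CEACAM7 set is high in the PIAS3 arrays, replicate 1 above replicate 2, with siRNA replicate 2 above siRNA replicate 1.

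Genes that CEACAM proteins work with were counted over whole lists, by the brightest probe set of each gene. For each list that follows, the shares over all probe sets with PIAS3 and with the siRNA are these. An unadjusted p under 0.05 was found for 13.9% and 4.85%, and 0.099% and 0.0045% passed the threshold. Of 24 measured partners and signalling proteins, 0 passed in either comparison with control (8 and 3 at an unadjusted p under 0.05). The median difference was -0.07 with PIAS3 and -0.08 with the siRNA. The integrin subunit ITGAV stood at -0.59 ± 0.12 with PIAS3 and -0.64 ± 0.12 with the siRNA (limma adjusted p of 0.108 and 0.473). EGFR stood at -0.61 ± 0.12 and -0.46 ± 0.12, the focal adhesion protein PXN at -0.44 ± 0.13 and -0.20 ± 0.13, and the insulin receptor INSR at 0.48 ± 0.14 and 0.22 ± 0.14.

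Of 21 measured regulators of CEACAM transcription and splicing, 0 passed in either comparison (6 and 3 at an unadjusted p under 0.05), with medians of -0.00 and -0.05. KLF4 read 8.40 and 8.27 in the PIAS3 arrays, 8.0 and 8.39 in the siRNA arrays, and 9.18 and 9.19 in the controls. Its differences of -0.85 ± 0.15 and -0.99 ± 0.15 had limma adjusted p-values of 0.0873 and 0.263. CEBPB, a factor of the acute phase response, stood at 0.88 ± 0.17 with PIAS3 and 0.22 ± 0.17 with the siRNA, and SP3, a GC box factor, at 0.45 ± 0.13 and 0.30 ± 0.13.

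GPI anchors hold CEACAM5, CEACAM6 and CEACAM7 at the surface. Of 26 measured genes of anchor synthesis and remodelling, 0 passed in either comparison (6 and 3 at an unadjusted p under 0.05), and the medians were 0.03 with PIAS3 and 0.04 with the siRNA. PGAP1, which removes a fatty acid from the new anchor, stood at 0.73 ± 0.15 and 0.43 ± 0.15. The mannosyltransferase PIGV stood at 0.38 ± 0.10 and 0.15 ± 0.10, PIGP, a subunit of the first enzyme of the pathway, at 0.60 ± 0.14 and 0.37 ± 0.14, and PGAP4, which adds a sugar to the anchor, at -0.49 ± 0.10 and -0.43 ± 0.10.

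Of 35 other GPI-anchored surface proteins, 0 passed in either comparison (9 and 4 at an unadjusted p under 0.05), with medians of -0.02 and -0.06. CD59, an inhibitor of complement lysis, read 10.30 and 10.73 in the PIAS3 arrays, 11.34 and 10.93 in the siRNA arrays, and 11.59 and 11.77 in the controls. Its differences were -1.17 ± 0.19 and -0.55 ± 0.19. CD14, a receptor for bacterial lipopolysaccharide, stood at 0.84 ± 0.13 with PIAS3 and 0.10 ± 0.13 with the siRNA, and the ephrin EFNA1 at 0.62 ± 0.12 and 0.21 ± 0.12.

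Of 27 measured epithelial surface and junction proteins, 0 passed in either comparison (11 and 6 at an unadjusted p under 0.05), with medians of -0.18 and -0.16. CDH1, the epithelial cadherin, stood at 1.09 ± 0.16 with PIAS3 and 0.24 ± 0.16 with the siRNA (limma adjusted p of 0.0761 and 1.0). The tight junction protein CLDN1 stood at -1.14 ± 0.18 and -0.98 ± 0.18 (0.0792 and 0.411), and the adhesion molecule L1CAM at -0.67 ± 0.12 in each.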

How the data were processed

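The authors deposited 6 arrays of log2 values. Per the submitters' processing notes these came from RMA, a method that removes background, makes arrays comparable and combines probes, and that shrinks differences of dim probe sets. No source used here gives its version. Tests left out 62 control probe sets. Names came from the platform annotation supplied, where 19064 probe sets had a single symbol.

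The deposited values of all 6 arrays entered a single two-sided limma fit (version 3.58.1, R 4.3.3), with 3 residual and 4.269 prior degrees of freedom. Benjamini-Hochberg adjustment ran over 22215 probe sets per comparison. The fit was tested on simulated data. Errors are standard errors of the fit. The members and lists were chosen with earlier results of these data known. Every member probe set is named, with up to 4 genes of each list by smallest p and the 4 nearest genes by profile. CEACAM3, CEACAM8, PSG5, RABAC1 and the cell type markers were named after their values were seen.

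Promoters are from RefSeq (GRCh38.p14) and were aligned with Biopython 1.88. Results were recomputed with the replicate number as a block, with quantile normalization repeated, with arrays centred on their medians, without probe sets under the 40th percentile of mean level, with only the groups compared, with a trend in eBayes, at an adjusted p of 0.10, and without each array.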

Additional observations from a re-analysis of the deposited data

How the results depend on the processing

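A replicate block, the filter on dim probe sets, the 2 groups alone and a trend in eBayes leave a difference itself unchanged. So does leaving out an array of the group not compared, which repeats the fit of the 2 groups alone. There a kept sign was fixed in advance, and the repeated fit counts the same result several times. Of 408 member differences recomputed under the alternatives, 381 kept their sign and their side of the threshold. Another 7 passed it, and 20 changed sign, all of them when an array was left out. With a replicate block 0 members passed in any comparison, and over all probe sets 2 passed in PIAS3 minus control, 1 in siRNA minus control and 0 in PIAS3 minus siRNA. Whether arrays of the same replicate number are paired is not labelled. Same-numbered deviations had correlations of 0.09, -0.06 and -0.05 in these comparisons, which with 2 arrays per group cannot settle it. In PIAS3 minus control 22 probe sets passed. That count was 2 with quantile normalization again, 2 with the filter on dim probe sets, 262 with the 2 groups alone, 254 at an adjusted p of 0.10, and 0 to 1232 with an array left out (the highest without PIAS3 replicate 2, and 0 without either control). At an adjusted p of 0.10, 1 member passed there. In siRNA minus control 1 probe set passed, against 0 with quantile normalization again, 3 with the 2 groups alone (1 of them a member), and 0 to 5 with an array left out. In PIAS3 minus siRNA 0 passed, against 0 to 544 with an array left out, the highest again without PIAS3 replicate 2. With an array left out, 0 to 3 members passed in PIAS3 minus control, and 0 to 1 in each of the other comparisons. Only 4 of the 12 members were kept by the filter on dim probe sets.

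Differences that changed sign with an array left out had these ranges. In PIAS3 minus control: CEACAM5 201884_at -0.059 to 0.50, CEACAM7 211848_s_at -0.025 to 0.25, CEACAM1 211889_x_at -0.13 to 0.63 and 210610_at -0.34 to 0.054. In siRNA minus control: CEACAM1 206576_s_at -0.14 to 0.092, 209498_at -0.26 to 0.29 and 211889_x_at -0.13 to 0.19, CEACAM5 217291_at -0.082 to 0.24, and CEACAM7 206198_s_at -0.10 to 0.37. In PIAS3 minus siRNA: CEACAM7 206198_s_at -0.17 to 0.30 and 211848_s_at -0.11 to 0.17, CEACAM5 217291_at -0.13 to 0.18, CEACAM6 203757_s_at -0.042 to 0.80, and CEACAM1 211883_x_at -0.10 to 0.36, 211889_x_at -0.16 to 0.60 and 210610_at -0.27 to 0.13. The cause was not tested. Of the differences that kept their sign, these moved by over 1.5 times from their value with all 6 arrays, and the full range is given. In PIAS3 minus control: CEACAM1 206576_s_at 0.29 to 0.66, 209498_at 0.16 to 2.25 and 211883_x_at -0.53 to -0.07, CEACAM5 217291_at 0.0022 to 0.20, and CEACAM6 203757_s_at -1.61 to -0.76. In siRNA minus control: CEACAM1 210610_at -0.11 to -0.03 and 211883_x_at -0.59 to -0.27, CEACAM5 201884_at -0.34 to -0.12, and CEACAM7 206199_at 0.07 to 0.51 and 211848_s_at 0.01 to 0.16. In PIAS3 minus siRNA: CEACAM1 206576_s_at 0.32 to 0.69 and 209498_at 0.14 to 2.23, CEACAM5 201884_at 0.17 to 0.73, CEACAM6 211657_at 0.08 to 0.64, and CEACAM7 206199_at 0.51 to 1.06.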

Other observations

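Pregnancy-specific glycoproteins (PSG), secreted placental relatives of the CEACAM proteins encoded beyond CEACAM1 on the same chromosome, had 14 probe sets with a single symbol. All 14 gave a higher mean in the PIAS3 arrays than in the controls, with a median difference of 0.274 and 9 of 14 with both PIAS3 arrays above both controls (21% of all probe sets). Of the 14, 0 passed the limma threshold and 7 had an unadjusted p under 0.05 (13.9% of all). Against the controls the siRNA arrays had a median of 0.04, with 10 of 14 positive. There 0 passed the threshold and 0 had an unadjusted p under 0.05 (4.85% of all). PSG5 read 5.18 and 5.56 in the PIAS3 arrays, 4.34 and 5.31 in the siRNA arrays, and 4.45 and 4.66 in the controls. PSG1 read 7.13 and 6.94 in the PIAS3 arrays, 6.60 and 6.92 in the siRNA arrays, and 6.65 and 6.55 in the controls. These genes are near-identical, and most of their probe sets can bind several of them, so which of them was measured is uncertain. Over the list of 18 other CEACAM and PSG genes, 13 were measured, with medians of 0.24 and -0.00 in these comparisons. The other CEACAM genes were CEACAM3, CEACAM4, CEACAM8 and CEACAM21, with 7 probe sets. They stayed between -0.11 and 0.24 in PIAS3 minus control and between -0.11 and -0.00 in siRNA minus control. In both, 0 passed the threshold and 0 had an unadjusted p under 0.05 (13.9% and 4.85% of all).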
